A study of Mus musculus with 4 samples.

Results

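Clusters of distal open chromatin were taken from the deposited control peak list of an ATAC-seq study of the mouse paraventricular nucleus of the hypothalamus (PVH). ATAC-seq marks open chromatin by the sites where a transposase can insert sequencing adapters. A peak was distal when it lay more than 1 kb from the start and the end of every RefSeq protein-coding gene of mm10. Distal peaks on chromosomes 1 to 19 were chained wherever the gap between them was at most 12.5 kb, and chains of 4 or more peaks were kept as clusters. Of 28592 control peaks, 17792 were distal on these chromosomes, and 659 of them formed 134 clusters. The clusters were chosen by peak position and numbered by the summed fold enrichment of their members, so their size and rank are descriptions and were not tested.

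All mice were Otp fl/fl with the Ai14 reporter allele and 12 weeks old. A control group (AAV-GFP, 2 libraries) received an adeno-associated virus with GFP as adults, and the other group (AAV-Cre, 2 libraries) received one with Cre, which recombines floxed Otp in the cells it infects. The PVH was dissected 4 weeks after the injection. The labels name no sorting of infected cells, no sex, no number of animals in a library and no separate animals behind the libraries, so p-values measure only a spread that may be technical. They also do not say which part of Otp is floxed, and in bulk tissue fewer cells with an open site and less opening per cell cannot be told apart. Read counts were not used here, so depth is unknown. The tissue's defining genes were unevenly marked in the control list, with no clean split between transcription factor and peptide genes. Otp, Sim1, Pou3f2, Mc4r and Trh each had 1 peak within 1 kb of a gene end. Arnt2, Oxt, Avp, Crh and Sst had 0.

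Most enhancers lie away from promoters, and groups of enhancers in close succession are known to mark genes that define a cell type. Stitching neighbouring peaks within a fixed distance and ranking the stitched regions by signal is the usual way to find such groups from marks of active enhancers. Open chromatin by itself does not show that a site is an enhancer. Promoters of genes transcribed by RNA polymerase III and of small nuclear RNA genes are open too, and these short genes often lie in tandem arrays outside protein-coding genes. In the PVH, Otp and Sim1 encode transcription factors that specify neuroendocrine neurons, which release peptides such as oxytocin (Oxt), vasopressin (Avp), corticotropin-releasing hormone (Crh) and thyrotropin-releasing hormone (Trh).

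Sequences were at hand for members that cover a RefSeq promoter window, from 250 bases before to 50 after an annotated transcript start. Such windows of protein-coding genes were internal starts more than 1 kb from the ends of the gene. Of the 659 members, 34 (5.16%) touched a window, against 8.64% of the 17133 other distal control peaks, and 21 windows lay wholly inside a member. The windows below, from RefSeq on GRCm38.p6 and read 5′ to 3′ along the gene's strand, show what the members can hold. The first lies in cluster 38, in the histone and tRNA gene region of chromosome 13, at chr13:23445922-23446221 on the minus strand; capitals mark the tRNA gene n-TVcac9, which carries a valine anticodon.
Gm46404: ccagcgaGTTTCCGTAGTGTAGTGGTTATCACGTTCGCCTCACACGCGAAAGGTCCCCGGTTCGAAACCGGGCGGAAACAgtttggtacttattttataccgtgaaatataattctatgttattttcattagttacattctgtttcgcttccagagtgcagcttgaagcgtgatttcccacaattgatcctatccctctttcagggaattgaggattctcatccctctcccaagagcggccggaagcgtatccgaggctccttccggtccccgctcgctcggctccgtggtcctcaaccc
The next lies in cluster 34, among 4 small nuclear RNA genes, at chr1:72243743-72244042 on the plus strand; capitals mark the octamer ATGCAAAT, a motif of small nuclear RNA promoters.
D230017M19Rik: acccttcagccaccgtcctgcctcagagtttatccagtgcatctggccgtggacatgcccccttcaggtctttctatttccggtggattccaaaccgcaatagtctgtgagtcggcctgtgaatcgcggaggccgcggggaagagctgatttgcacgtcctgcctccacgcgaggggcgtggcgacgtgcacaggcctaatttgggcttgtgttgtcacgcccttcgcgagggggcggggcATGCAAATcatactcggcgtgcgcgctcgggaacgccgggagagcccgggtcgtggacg
The last 2 windows, with CpG dinucleotides in capitals, contrast a member found in all 4 libraries with one found in the AAV-GFP libraries alone. They are chr13:59073665-59073964 in Ntrk2 (cluster 59) and chr5:66337616-66337915 in Apbb2 (cluster 37), both on the minus strand.
Gm53063: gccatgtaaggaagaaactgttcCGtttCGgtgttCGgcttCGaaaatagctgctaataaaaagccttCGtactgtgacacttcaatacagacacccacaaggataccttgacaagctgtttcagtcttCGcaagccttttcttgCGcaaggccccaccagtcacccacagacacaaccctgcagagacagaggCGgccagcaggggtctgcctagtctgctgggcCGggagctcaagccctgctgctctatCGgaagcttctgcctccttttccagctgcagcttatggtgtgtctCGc
Apbb2: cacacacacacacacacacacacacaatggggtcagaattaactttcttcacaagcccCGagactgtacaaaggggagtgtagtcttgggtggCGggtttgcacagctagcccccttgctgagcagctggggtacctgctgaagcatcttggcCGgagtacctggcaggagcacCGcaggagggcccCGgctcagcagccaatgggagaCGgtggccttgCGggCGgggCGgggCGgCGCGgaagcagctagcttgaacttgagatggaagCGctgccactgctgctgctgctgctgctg
Over the 21 windows the median was 10 CpG dinucleotides, against 7 over all 31396 windows of the table. On both strands, the octamer was found in 2 of the 21 windows (9.52%, D230017M19Rik and Bcar1) against 1.75% of all windows, the homeodomain pair TAATTA in 2 (9.52%) against 5.27%, and the AP-1 motif TGANTCA in 1 (4.76%) against 7.84%. With 21 windows these shares are descriptions of the letters found. They say nothing of a factor.

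Most clusters were short chains of modest peaks. Of the 134 clusters, 93 held 4 peaks, 18 held 5 and 23 held 6 or more, up to 36. Their span had a median of 23216 bp and ran from 8882 to 124856 bp. The summed fold enrichment, the authors' ratio of signal to background added over the members of a cluster, had a median of 28.6 and ran from 16.2 to 177. Neighbouring members lay 6161 bp apart at the median. The widest bridged gap was 12473 bp and the narrowest unbridged one 12501 bp, and 336 chains stopped at 3 peaks, with a median sum of 20.2 and a highest of 48.7. Single members were weaker than other distal peaks by fold enrichment, with a median of 6.01 against 7.25, and alike by −log10 p (19.3 against 18.8) and width (quartiles 301 and 557.5 against 309 and 553 bp).

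**Figure D1:**
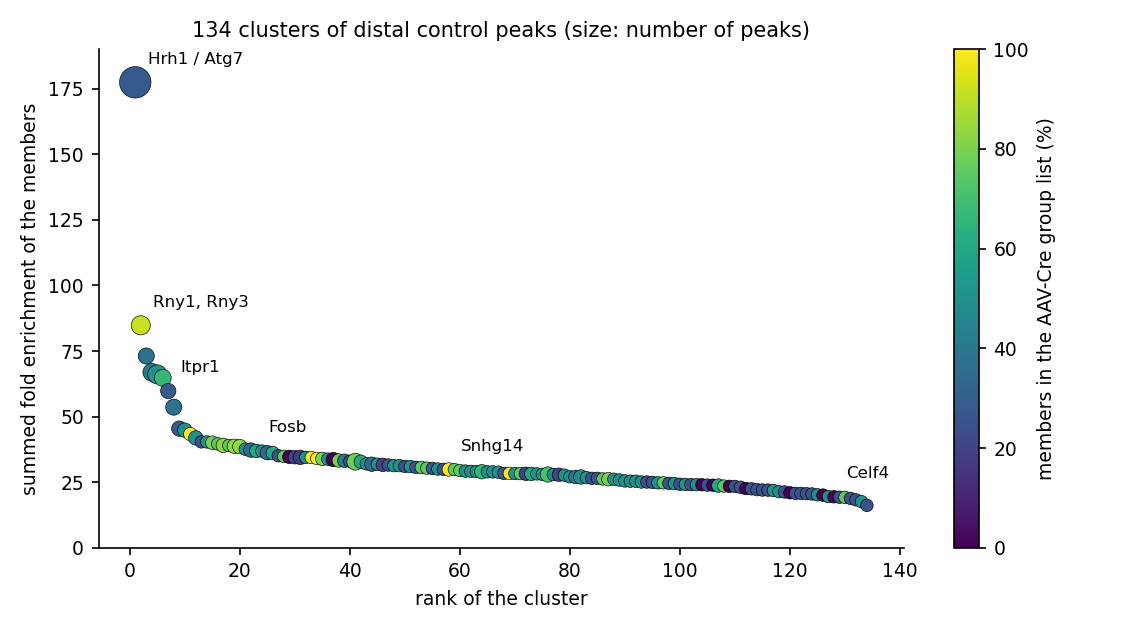
Summed fold enrichment of the members (y axis, the authors' ratio, no unit) against the rank of each of the 134 clusters (x axis), with point size for the number of peaks and colour for the percentage of members in the AAV-Cre group list. Cluster 1, with 36 peaks and a sum of 177, stands far above cluster 2 at 84.8, and beyond the first clusters the sums fall slowly to 16.2.

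Cluster 1 was the largest by far and overlapped no RefSeq gene. It spans chr6:114494488-114619343, between Hrh1, the histamine H1 receptor gene (11.2 kb away), and Atg7, which encodes an enzyme of autophagy (23.8 kb away). Its 36 members had fold enrichments from 2.67 to 8.46 (median 3.72) in AAV-GFP replicate 1 and from 3.04 to 11.6 (median 4.54) in AAV-GFP replicate 2. In AAV-Cre replicate 1, 17 of them met a peak, with folds from 3.09 to 6.28 (median 4.14). In AAV-Cre replicate 2, 16 did, from 3.05 to 6.84 (median 4.34). These ranges cover different sets of sites, since the AAV-Cre libraries listed fewer of the peaks. The strongest member of the control list had folds of 7.97 and 10.8 in the AAV-GFP libraries and 6.04 and 6.84 after AAV-Cre. The next had 8.46 and 9.50 against 6.28 and 6.39, so both AAV-Cre values were lower at each of these sites. Both sites were picked as strongest in the list of the AAV-GFP group. That choice favours lower AAV-Cre values, so these values cannot show a group difference. The AAV-Cre group list held 10 of the 36, against 36.3% of other distal control peaks. The median fold of the 36 in the control list was 4.51. That lies in the weakest of 10 classes by fold (described below), where 16.6% of other distal peaks were in the AAV-Cre group list. Of the 4 strongest members, those at 9.78, 9.56 and 8.22 in the control list were in the AAV-Cre group list and that at 7.17 was not.

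Cluster 2, at chr6:47739680-47788701, covers Rny1 and Rny3, the genes of small Y RNAs that bind the Ro protein, and lies between Gm40363 (1.35 kb away) and Pdia4 (7.44 kb away), which encodes a protein disulfide isomerase. Its 12 members had a summed fold of 84.8, and 11 were in the AAV-Cre group list. All 12 met a peak in each AAV-GFP library, as every control peak does by how the list was made, with median folds of 7.53 and 7.10. In each AAV-Cre library 11 met a peak, with median folds of 6.83 and 6.83. The missing member was the weakest, with a fold of 1.81. The libraries therefore list nearly the same peaks here.

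**Figure D2:**
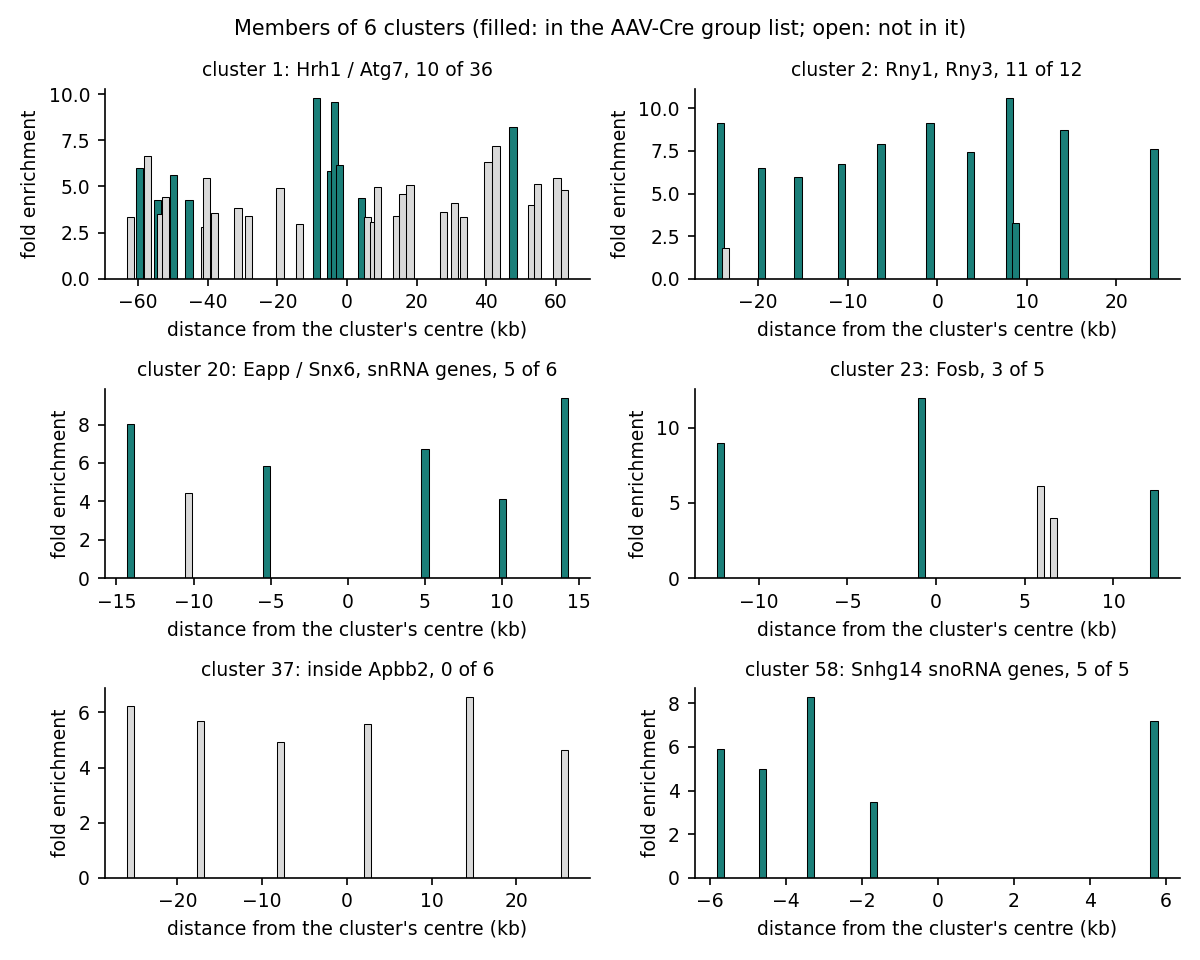
Members of 6 clusters, drawn as bars at their distance from the cluster's centre (x axis, kb) with the control fold enrichment as height (y axis, the authors' ratio), filled where the AAV-Cre group list overlaps the member. Filled are 10 of 36 bars in cluster 1, 0 of 6 in the Apbb2 cluster, 11 of 12 over Rny1 and Rny3 and 5 of 5 over the snoRNA genes of Snhg14. Of distal control peaks outside clusters, 36.3% are in the AAV-Cre group list. In the weakest of 10 classes by fold, which holds the median of cluster 1 (4.51), the share is 16.6%. In the classes that hold the Apbb2 cluster it is 16.6% to 25.6%.

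The following clusters by rank lay beside genes with varied roles. Cluster 3 (8 peaks, sum 73.1, 3 in the AAV-Cre group list) lies 47.5 kb from Chd2, which encodes a chromatin remodeller, 30.8 kb from its neighbouring lncRNA Chaserr, and covers 2 further lncRNA genes and 1 snRNA gene. Cluster 4 (10 peaks, 4 in the list) lies between Lrrc74a and Irf2bpl, and cluster 5 (12 peaks, 6 in the list) covers 6 lncRNA genes and Mir3089. Cluster 6 (9 peaks, 6 in the list) lies between Camk2n1, which encodes an inhibitor of the kinase CaMKII, and Vwa5b1. Cluster 7 (7 peaks, 2 in the list) lies inside Itpr1, the gene of an inositol trisphosphate receptor that releases calcium from the endoplasmic reticulum. Cluster 8 (8 peaks, 3 in the list) lies inside the kinase gene Stk32c.

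Clusters 9 to 25 held 4 to 7 peaks each. Those that overlap protein-coding genes covered Gm30733, the retroviral gene Erv3, Dcstamp with Dpys, Ttc34 with Mmel1, Cuedc1, Slit1 (a secreted axon guidance protein), Fosb and Cdh4 (a cadherin). Others lay between Rasa2 and Zbtb38, between Lpar3 and Ssx2ip, and between Spag9 and Tob1. Further ones lay between the natural killer cell receptor genes Klrb1 and Klrb1c, between the tubulin genes Tuba1a and Tuba1c, between Eapp and Snx6, between Pkdcc and Eml4, and between Psmb7 and Nr5a1. Over the 25 clusters of highest sum, 97 of 190 members (51.1%, 95% Wilson interval 44.0 to 58.1) were in the AAV-Cre group list, against 36.3% of other distal control peaks and 51.3% of all control peaks. The cut at 25 was narrow, since cluster 25 had a sum of 36.26 and cluster 26 one of 36.12.

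By position, 75 clusters overlapped a protein-coding gene and 59 lay between genes, at a median of 23.1 kb from the nearest one. Wholly inside a gene lay 50 clusters, and 25 spanned at least 1 gene end. The host genes were long, with a median of 117.83 kb against 17.491 kb over all protein-coding genes. A long gene offers more room for peaks away from its ends, so its length is tied to the rule. Of the members, 43.1% lay inside a protein-coding gene, against 55.0% of other distal peaks. At least 1 lncRNA gene was covered by 62 clusters, and 20 clusters covered no RefSeq gene of any kind. Cluster 28 fills the space between the abundant nuclear lncRNAs Malat1 (0.609 kb away) and Neat1 (2.20 kb away). Its 4 members had median folds in the control list of 7.27, and 3 of them were in the AAV-Cre group list. The strongest of them had folds of 13.3 and 15.0 in the AAV-GFP libraries and 12.1 and 17.6 in the AAV-Cre libraries, so the groups overlapped there.

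Structural small RNA genes (those of snRNA, tRNA, snoRNA, rRNA and Y RNA) lay within 1 kb of 32 members (4.86%) and of 131 other distal peaks (0.765%). The share was 2.12% against 0.175% for snRNA genes, which encode parts of the spliceosome. It was 1.52% against 0.473% for tRNA genes and 0.759% against 0.117% for snoRNA genes, whose products guide modification of other RNAs. Pseudogenes showed no such contrast, at 0.759% in both, and lncRNA genes lay near 9.86% of members against 7.88%. In all, 11 clusters covered a structural small RNA gene and 7 of them covered 2 or more. Arrays of near-identical gene copies share sequence, so reads may be assigned among copies with uncertainty, and the sources used here do not say how such reads were treated.

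Clusters over structural small RNA genes had a high share of members in the AAV-Cre group list, and so had other distal peaks near such genes. Of the 65 members of the 11 clusters, 46 (70.8%, 58.8 to 80.4) were in the AAV-Cre group list, against 255 of 594 (42.9%, 39.0 to 46.9) in the other clusters. By single peaks, 24 of the 32 members within 1 kb of such a gene (75%) were in the list, and 83 of the 131 other distal peaks (63.4%). These shares were not matched on peak strength, and its part in them was not tested. The median −log10 p was 239 in cluster 2, but 21.4 in cluster 20 and 12.0 in cluster 82. In the strongest of 10 classes by −log10 p, from 46.2 up, 91.7% of other distal peaks were in the list. Cluster 58 lies over 4 snoRNA genes in the Snhg14 host transcript, between Ube3a and Snrpn in an imprinted region. Its 5 members had folds from 3.70 to 7.53 in AAV-GFP replicate 1, from 3.35 to 8.32 in AAV-GFP replicate 2, from 3.44 to 7.02 in AAV-Cre replicate 1 and from 4.09 to 8.06 in AAV-Cre replicate 2. All 5 were present in all 4 libraries. The medians were 5.74 and 5.70 in the AAV-GFP libraries and 5.44 and 4.98 in the AAV-Cre libraries, lower in both of the latter.

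Cluster 34, over 4 snRNA genes between Mreg and Pecr, had 4 of 4 members in the AAV-Cre group list. The member with the D230017M19Rik window printed above had folds of 10.8 and 7.24 in the AAV-GFP libraries and 7.79 and 6.23 in the AAV-Cre libraries. Cluster 20, over 6 snRNA genes between Eapp and Snx6, had 5 of 6 in the list, with medians of 5.49 and 6.08 in the AAV-GFP libraries and 6.95 and 6.14 in the AAV-Cre libraries. Cluster 38, over 10 tRNA genes, had 4 of 5. Its member with the n-TVcac9 gene had folds of 6.59 and 6.95 in the AAV-GFP libraries and 8.35 and 6.86 in the AAV-Cre libraries. Not all such clusters had so many members in the list. Cluster 82, over 7 snRNA and tRNA genes, had 3 of 6, and over the 7 clusters with 2 or more such genes the count ran down to 1 of 4. In cluster 82 the 6 members had median folds of 3.56 and 3.91 in the AAV-GFP libraries, which meet every control peak by how the list was made. In each AAV-Cre library 3 of the 6 met a peak, against 45.3% and 53.0% of other distal control peaks in replicates 1 and 2. The median fold of the 6 in the control list was 3.89, in the weakest of 10 classes by fold (described below). In that class 16.6% of other distal peaks were in the AAV-Cre group list.

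Genes of PVH identity were compared with all genes by their distance to a cluster. Within 50 kb of a cluster lay 272 of 20665 protein-coding genes of chromosomes 1 to 19, a background of 1.32%. Of 40 PVH transcription factor and peptide genes the count was 0, and of 272 listed genes on these chromosomes it was 6 (2.21%). In the lists for glutamate and GABA identity, astrocytes, oligodendrocytes and their precursors, microglia, endothelial cells and ependyma it was 0 as well. The nearest cluster was 35473 kb from Otp, 11194 kb from Sim1 and 15952 kb from Mc4r, the melanocortin receptor gene. It was 1251 kb from Oxt, 1246 kb from Avp, 8792 kb from Crh and 501 kb from Trh. With 40 genes and a background of 1.32%, a count of 0 differs little from that background and shows neither a lack nor an excess of clusters at these genes.

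The 6 listed genes belong to 6 lists, and 5 of them are described here. Cluster 23 begins inside Fosb, an activity-regulated gene of the AP-1 family, and cluster 59 lies inside Ntrk2, the receptor of brain-derived neurotrophic factor. Cluster 24 lies 33.9 kb from Nr5a1, a transcription factor gene of the neighbouring ventromedial nucleus, and nearer to Psmb7 (2.10 kb), which encodes a proteasome subunit. Cluster 61 lies 2.34 kb from Socs3, an inhibitor of cytokine signalling. Cluster 128 lies inside Celf4, a neuronal RNA-binding protein gene.

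At Fosb the strongest member had folds of 11.4 and 9.96 in the AAV-GFP libraries and 8.29 and 12.4 in the AAV-Cre libraries. The groups overlapped, and 3 of its 5 members were in the AAV-Cre group list. The member of Ntrk2 with the Gm53063 window had folds of 10.3 and 9.71 in the AAV-GFP libraries and of 10.5 and 9.63 after AAV-Cre. Here too the groups overlapped, and 3 of 4 members were in the list. The strongest member near Nr5a1 had folds of 14.3 and 15.1 against 9.70 and 11.3, so here both AAV-Cre values were lower. It was picked as strongest in the control list, which favours lower AAV-Cre values. Of the 4 members there, 2 were in the AAV-Cre group list. At Celf4, 0 of 4 members met a peak in AAV-Cre replicate 1 and 1 did in AAV-Cre replicate 2. Of other distal control peaks, 45.3% and 53.0% did. That all 4 met one in both AAV-GFP libraries follows from how the control list was made. The AAV-Cre group list held 0 of the 4. Their median control fold was 4.35, in the weakest of 10 classes by fold (described below). In that class 16.6% of other distal peaks were in the AAV-Cre group list. At such a share a count of 0 of 4 differs little from the background. Folds come from lists called separately, so values in different libraries are set side by side and were not tested.

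**Figure D3:**
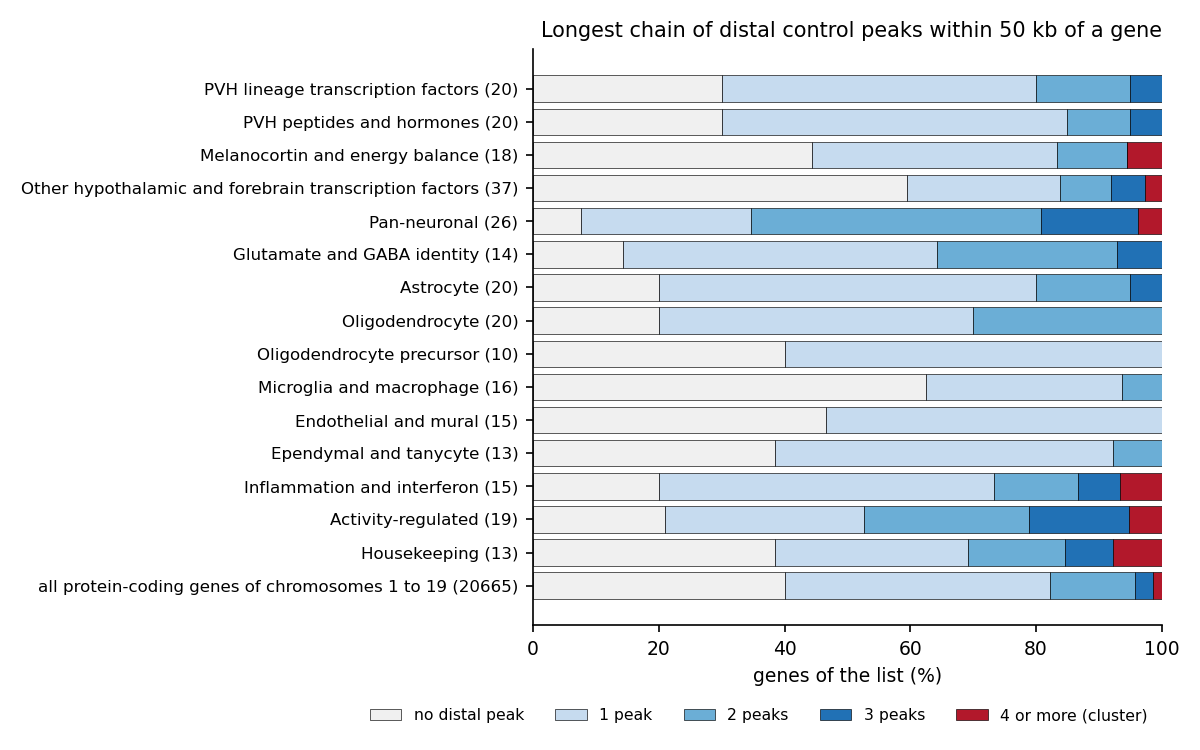
For each gene list (number of genes in brackets), the percentage of genes (x axis) by the longest chain of distal control peaks within 50 kb, from no distal peak to a cluster of 4 or more. Neither PVH list reaches a cluster, and 1 of 26 pan-neuronal genes does. A chain of 2 or more peaks lies near 65.4% of pan-neuronal genes and 17.5% of PVH transcription factor and peptide genes, against 17.7% of all protein-coding genes.

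Shorter chains were more frequent near several lists than near all genes, and less frequent near others. A chain of 2 or more distal peaks lay within 50 kb of 17 of 26 pan-neuronal genes (65.4%) and of 9 of 19 activity-regulated genes (47.4%), against 17.7% of all protein-coding genes. The share was 35.7% for glutamate and GABA identity genes, 30.8% for housekeeping, 30.0% for oligodendrocyte and 26.7% for inflammation genes, and 24.6% over all listed genes. For PVH transcription factor and peptide genes it was 17.5%. Lower shares were 16.7% for melanocortin and energy balance genes and 16.2% for other hypothalamic and forebrain transcription factor genes. They were 7.69% for ependymal and tanycyte genes and 6.25% for microglia and macrophage genes. Both oligodendrocyte precursor genes and endothelial and mural genes had 0%. A long gene has a wider window around it. The median length was 228 kb for pan-neuronal and 5.30 kb for activity-regulated genes, against 17.5 kb for all genes. It was 163 kb for PVH lineage transcription factor genes, of which 20.0% had a chain of 2 or more. The part of gene length in these shares was not tested.

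Cluster members overlapped the AAV-Cre group list more often than other distal control peaks. In that list, which held 16614 peaks, were 301 of 659 members (45.7%, 41.9 to 49.5), against a background of 36.3% over the other distal control peaks (6211 of 17133, 35.5 to 37.0). Over all control peaks, gene ends included, the background was 51.3%. In the single libraries the shares were 54.8% of members against a background of 45.3% in AAV-Cre replicate 1, and 60.4% against 53.0% in AAV-Cre replicate 2. Both AAV-Cre libraries had a peak at 297 members (45.1%), and neither had one at 197 members (29.9%), against 37.9% of other distal peaks. Both AAV-GFP libraries met all members, which follows from how the group list was made. Members of a cluster are neighbours and share reads of the same libraries, so these Wilson intervals cover counting error only and are too narrow for a comparison of conditions.

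The share differed with the length of the chain. It was 35.5% for single distal peaks, 37.6% for pairs, 40.0% in chains of 3, 42.5% in clusters of 4, 54.4% in clusters of 5 (44.2 to 64.3) and 47.7% in clusters of 6 or more (40.9 to 54.7). The last intervals overlap each other. Without cluster 1 the share over all clusters was 46.7%, and without the 11 clusters over structural small RNA genes it was 42.9%.

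Single clusters ranged from none to all. In 77 of the 134 clusters as many members or more were in the AAV-Cre group list as out of it, in 5 every member was, and in 9 none was. Most clusters had 4 peaks, and the share in those was 42.5%. At that share alone some clusters would hold none or all. These counts were not tested and mark no trait of the clusters named. The complete clusters included 33 (over Fam110a), 34 and 58 (over snRNA and snoRNA genes) and 69 (between Zfp236 and Zfp516), named here after their values were seen. Of clusters with 6 or more peaks, 1 had no member in the list, the cluster of 6 inside Apbb2, which encodes an adaptor of the amyloid precursor protein. Its folds ran from 4.59 to 5.94 in AAV-GFP replicate 1 and from 3.95 to 6.71 in AAV-GFP replicate 2. In AAV-Cre replicate 1, 2 of the 6 met a peak, at 3.24 and 4.40, and in AAV-Cre replicate 2 none did. The control folds of this cluster were 4.64 to 6.56. In the classes of fold that hold them (described below), 16.6% to 25.6% of other distal peaks were in the AAV-Cre group list. At such shares a count of 0 of 6 differs little from the background. The remaining clusters with none, also named after their values were seen, included those between Tiam1 and Sod1, over Sardh, over Syt16, over Ptpre and over Celf4. Absence from the group list did not always mean absence from the libraries. In the cluster between Tiam1 and Sod1, 1 of 5 members met a peak in AAV-Cre replicate 1 and 3 in AAV-Cre replicate 2, while in the cluster over Ptpre 0 of 4 met one in either.

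At equal fold enrichment the contrast between members and other distal peaks was wider than without matching (45.7% against 36.3%). At equal −log10 p it was narrower. All distal control peaks were split into 10 classes by fold, and the other peaks were weighted to the members' classes. Their share was then 28.0%, or 17.6 percentage points below the members, and members had the higher share in 10 of 10 classes. With clusters taken from the list of AAV-GFP replicate 1, that is without AAV-GFP replicate 2, the difference was 9.40 points and the share of members in the AAV-Cre group list 23.8%. In the strongest class 25 of 27 members (92.6%) and 75.1% of other peaks were in the AAV-Cre group list, and in the weakest 22.9% and 16.6%. Matched on −log10 p the difference was 7.75 points, with the higher share in 9 of 10 classes, and matched on peak width it was 9.98 points, in 8 of 10.

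**Figure D4:**
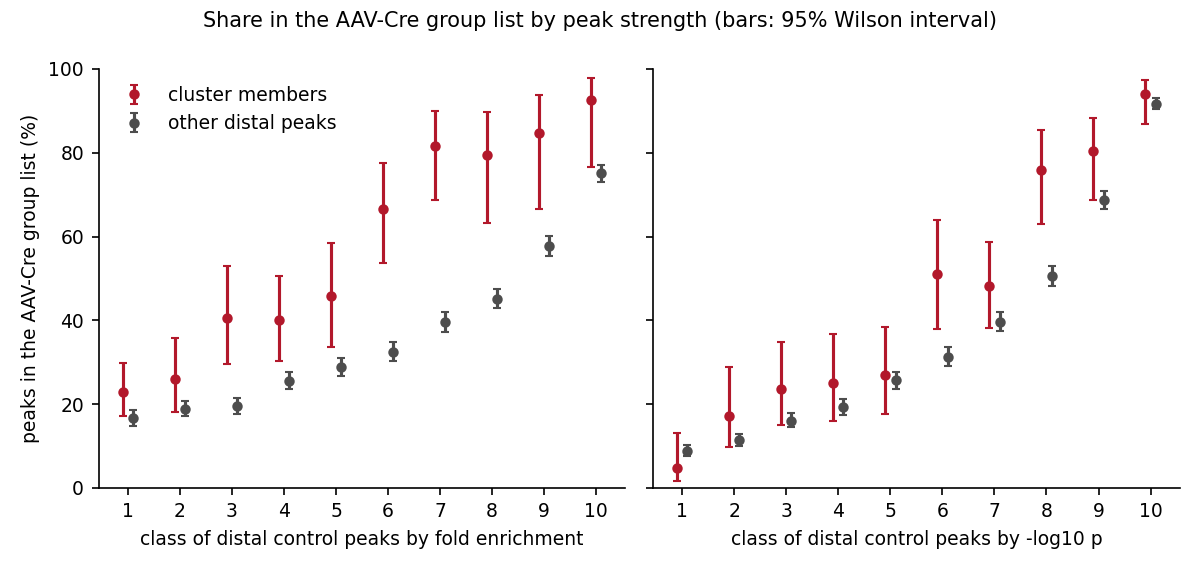
Percentage of cluster members (red) and other distal control peaks (grey) found in the AAV-Cre group list (y axis), in 10 equal classes of all distal control peaks by fold enrichment (left) or −log10 p (right), weakest first, with 95% Wilson intervals as bars. Members lie above the other peaks in 10 of 10 classes by fold and in 9 of 10 by −log10 p, where the distance is smaller.

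The 2 measures of strength disagreed in clusters. A member's −log10 p was above the median of the 200 other distal peaks nearest to it in fold for 534 of 659 members (81.0%). As a ratio of the medians the contrast was largest in cluster 41, at chr9:3009272-3033961 beside the assembly gap that stands for the centromere, where the median −log10 p was 203 against 9.17 at the same fold. In cluster 2 it was 239 against 19.2, followed by clusters 18, 58 and 76, the last over Rn4.5s, a 4.5S RNA gene. The part of read depth and of the local background in the difference of 17.6 points was not tested.

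Clusters found by the same rule in other lists overlapped those of the control list in part. The AAV-Cre group list gave 25 clusters with 119 members. Of these, 18 (72.0%) overlapped 17 of the 134 control clusters (12.7%). The control list cut to its 16614 strongest peaks by −log10 p gave 14 clusters, fewer than the AAV-Cre list of that length. At this length the control list held 8278 distal peaks and the AAV-Cre list 8249. The cause of the difference in clusters between them was not tested. The control list gave 134 clusters as deposited and 14 when cut, so the rule also depends on the length of a list.

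In the lists of the single libraries the number of clusters depended on list length to the point of changing direction. As deposited, AAV-GFP replicates 1 and 2 gave 1167 and 279 clusters and AAV-Cre replicates 1 and 2 gave 90 and 144. Cut to the 23384 strongest peaks each, the length of the shortest list, they gave 43 and 64 against 90 and 82. The mean was then 53.5 ± 14.8 (SD, n = 2) in AAV-GFP and 86.0 ± 5.66 (SD, n = 2) in AAV-Cre libraries, a difference of 32.5 clusters. The groups did not overlap, and the exact permutation test gave a two-sided p of 0.33, which is the smallest that 3 distinct splits of 4 libraries allow. As deposited the difference was -606 clusters with the same p. With gaps of at most 5000 bp, lists of equal length gave 7 and 10 against 11 and 8 clusters, overlapping groups with a difference of 1.00 and an exact p of 0.667. A difference in clustering between the groups was therefore not detectable with these libraries.

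**Figure D5:**
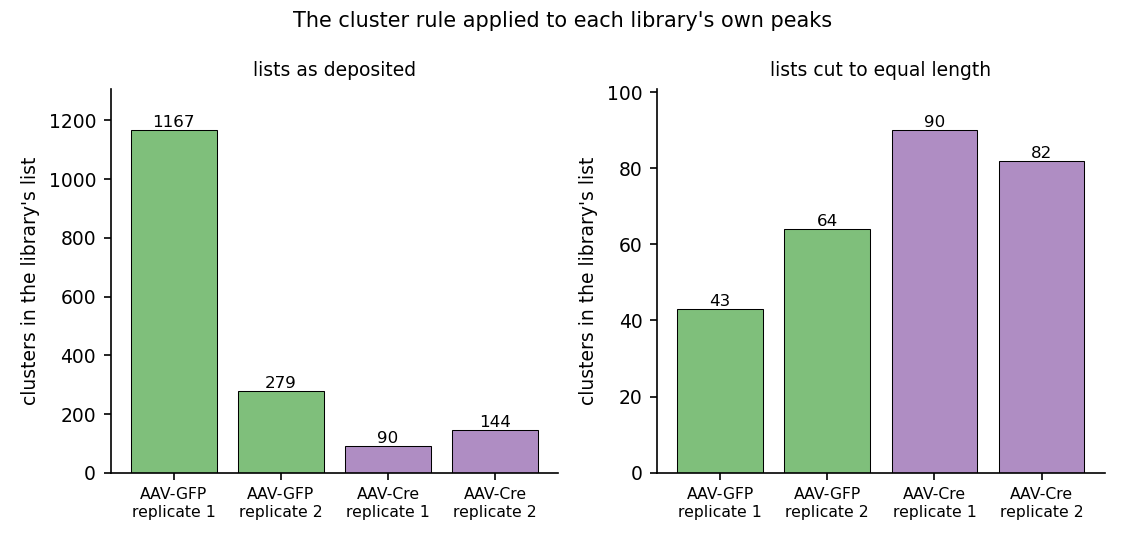
Number of clusters (y axis) that the rule found in each library's own peak list, as deposited (left) and with each list cut to 23384 peaks (right); bars start at 0 and there is 1 value per library. The AAV-GFP bars are the higher ones as deposited (1167 and 279 against 90 and 144) and the lower ones at equal length (43 and 64 against 90 and 82).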

How the data were processed

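ATAC-seq peak lists of 4 libraries (2 AAV-GFP, 2 AAV-Cre) and 1 list for each group were used. The submitters' processing notes name build mm10 and the tools MACS2, Bowtie2, Trim Galore and FastQC. No source used here gives versions, filters or thresholds. The deposited fold enrichment is the authors' ratio of summit signal to local background. The authors' caller gave each deposited peak a −log10 p, a −log10 q and a score, which is 10 times −log10 q without its decimals. Peak names in the group lists mark a pool of the group. No value was compared across lists by a test.

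Gene starts, ends and types came from a RefSeq table (GRCm38.p6) without strand or exons. Any overlap of at least 1 bp placed a member in another list; several members can meet the same peak. Libraries were grouped by their labels. Replicate numbers did not pair them: the replicate differences of the groups correlated at r = -0.0370 over 6502 distal peaks. Chaining, overlap and matching were tested on simulated lists. Shares carry 95% Wilson intervals for counting error only, and the number of clusters per library was compared by an exact permutation test. Depth is unknown. The members, the 15 gene lists and the rule for named clusters (the 25 of highest sum, listed genes within 50 kb, and clusters of 6 or more peaks with no or every member in the AAV-Cre group list) were chosen with earlier results of these data known. Some results under the rule for named clusters are not reported here. Computations used Python 3.11.15, pandas 2.3.3 and SciPy 1.17.1.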

Additional observations from a re-analysis of the deposited data

How the results depend on the processing

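Depth is unknown and limits all counts, and the cause of the shifts below was not tested unless the setting itself makes it. The number of clusters, 134, was 10 with gaps of at most 5000 bp and 465 at 25000 bp, 470 with at least 3 peaks and 23 with at least 6, and 14 in group lists of equal length. Clusters taken from 1 control library numbered 279 without AAV-GFP replicate 1 and 1167 without AAV-GFP replicate 2, and 134 without either AAV-Cre library. The share of members in the AAV-Cre group list, 45.7%, was 63.3% with gaps of at most 5000 bp and 71.2% at equal length, and ran from 23.8% (without AAV-GFP replicate 2) to 60.4% (without AAV-Cre replicate 1) when a library was left out. That of other distal peaks, 36.3%, was 35.1% at 2500 bp from gene ends, 58.7% at equal length and 34.2% when at least 50% of the control peak had to overlap, and ran from 17.3% to 53.0% without the same 2 libraries. The matched difference, 17.6 points, was 39.0 at 5000 bp, 12.1 at 25000 bp, 13.3 with at least 3 peaks and 13.8 at equal length, and ran from 9.40 (without AAV-GFP replicate 2) to 17.2 without a library. Matched on −log10 p it was 7.75 and on width 9.98, both chosen after the data were seen. It was above 0 in every alternative run. The 6 listed genes became 15 within 250 kb, 21 with at least 3 peaks and 24 at 25000 bp, settings also chosen after the data were seen; the share over all genes was then 4.85%, 4.33% and 5.13%.

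The difference in clusters per library, 32.5 at equal length, was -606 in the lists as deposited. Leaving out a library gave 22.0 to 43.0. With the replicate block it was 32.5 by construction, and 2 pairs allow no exact p under 0.5. Of the 25 named clusters, 17 or 18 remained among the first 25 when ranked by number of peaks, by summed −log10 p or without the strongest peak, and 6 when ranked by fold per kb of span.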

Other observations

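In the AAV-Cre group list, 7 of the 25 clusters overlapped no control cluster. They lay over Pisd, which encodes a mitochondrial enzyme of phospholipid synthesis (5 peaks), Phactr3, Rai1, Hlcs, Ralgds (5 peaks), and Nfkb2 with Psd, and 1 lay on chromosome 8 over no protein-coding gene. Each already held 2 to 4 distal control peaks, in chains of at most 3. None of these genes belongs to the PVH lists.

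Chromosome X was outside the rule. There the control list gave 2 more clusters, 1 of 11 peaks with a summed fold of 61.8 at chrX:169978776-170022269, close to the end of the chromosome, and 1 of 4 peaks with a sum of 33.8.

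Clusters were unevenly spread over chromosomes, with 14 on chromosome 2 and 1 each on chromosomes 10 and 16. Per 1000 distal control peaks of the chromosome these are 10.2, 1.20 and 1.69.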
